A study of Homo sapiens with 4 samples.

Results

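Aminoacyl-tRNA synthetases are the enzymes that load each amino acid onto its tRNA. In RNA-seq of the human liver cancer line MHCC-97H they were taken as the protein-coding rows whose symbol is a 1-letter amino acid code followed by ARS, with or without a final 1 or 2. EPRS, FARSA, FARSB, TARSL2 and the scaffold genes AIMP1, AIMP2 and EEF1E1 were added by name. This rule found 41 of the 33478 gene rows: 21 cytosolic enzymes, 17 mitochondrial enzymes whose symbol ends in ARS2, and 3 scaffold proteins. TARSL2 also ends in 2 but encodes a cytosolic enzyme, and AIMP2 is a scaffold, so neither was counted as mitochondrial. Members were chosen by name alone, and all 41 averaged at least 1 TPM (a transcript level corrected for length) over the libraries, the minimum for testing.

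There were 2 groups of 2 libraries. Control libraries came from MHCC-97H cells carrying a shRNA labelled SH-NC, with the genotype given as control. The other libraries came from MHCC-97H cells carrying a shRNA labelled SH-UCK2, with the genotype given as UCK2 knockdown. UCK2 is uridine-cytidine kinase 2, which phosphorylates uridine and cytidine in the pyrimidine salvage pathway. The labels name no vector, clone, dose or time. Nor do they say if replicates were grown separately or what the letter B in both SH-UCK2 titles stands for. The comparison asks how UCK2 knockdown alters mRNA levels in these cells.

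A synthetase joins its amino acid to the matching tRNA in an ATP-driven reaction, and the charged tRNA is then carried to the ribosome by an elongation factor. Animal cells keep separate nuclear genes for most cytosolic and mitochondrial synthetases; KARS and GARS serve both compartments. Several cytosolic enzymes sit with AIMP1, AIMP2 and EEF1E1 in a multi-synthetase complex. Many cytosolic synthetase genes are known targets of ATF4, the transcription factor of the amino acid and integrated stress responses.

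The deposited TPM of all rows summed to 850379 and 850534 in the control libraries, and to 676811 and 643063 in the libraries labelled UCK2 shRNA. Every gene was therefore read both as deposited and after dividing each library by a median-ratio size factor, which ran from 0.918 to 1.19. With this scaling the log2 differences of the 14038 tested genes had a median of -0.01 in place of -0.22. In bulk RNA fewer cells of a kind and less RNA per cell cannot be told apart. UCK2 itself stood at 136 TPM in control replicate 1 and 93.6 in replicate 2, and at 121 TPM in the library labelled UCK2 shRNA replicate 1 and 67.8 in replicate 2. The groups overlapped, so the label was not separated by its target: the log2 difference was -0.31 as deposited (limma adjusted p = 0.640) and -0.08 after scaling (adjusted p = 0.990). Directions below are those between the labelled libraries. Of 9 hepatocyte and hepatoma markers, 8 averaged at least 1 TPM, with summed levels of 3097 to 4182 TPM in control and 2364 to 2728 TPM in the UCK2 shRNA libraries; GPC3 averaged 0.02 TPM. Most of that sum came from the epithelial keratins KRT8 and KRT18; the other 7 markers summed to 155 to 168 TPM in control and 111 to 138 TPM in the UCK2 shRNA libraries. Retinas are named in the extraction protocol, but of 12 retina markers only OPN1SW averaged 1 TPM or more and the list summed to 3.62 to 4.64 TPM in control and 3.17 to 4.58 TPM in the UCK2 shRNA libraries. Fibroblast markers reached 1 TPM for 1 of 5 genes (LUM; sums of 6.87 to 29.1 TPM in control and 16 to 21.6 TPM in UCK2 shRNA libraries). Leukocyte markers did so for 1 of 4 (CD79A; 6.48 to 9.57 against 3.40 to 4.17 TPM), with CD3E at 0 in all libraries; what these genes contribute to the results was not tested.

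Synthetase mRNAs were moderately abundant, and the cytosolic enzymes were expressed above the mitochondrial ones. Per-gene means over the 4 libraries ran from 2.94 to 116 TPM for cytosolic enzymes (median 56.3), from 3.69 to 55.2 TPM for mitochondrial enzymes (median 14.6) and from 26.5 to 60.8 TPM for scaffolds. Together the 41 genes made up 0.238% and 0.202% of the deposited TPM sum in control replicates 1 and 2, and 0.232% and 0.271% in UCK2 shRNA replicates 1 and 2. The share was highest in UCK2 shRNA replicate 2, and the groups overlapped.

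MARS, which charges methionine tRNA and so serves both initiation and elongation, had the highest mean. Its level was 122 TPM in control replicate 1, 110 in control replicate 2, 97 in UCK2 shRNA replicate 1 and 136 in UCK2 shRNA replicate 2. IARS, the isoleucine enzyme, stood at 116, 99.8, 99.4 and 115 TPM, with the libraries in that order, here and for every gene that follows. In both genes the groups overlapped. Outside the complex the highest means were those of GARS, the glycine enzyme (111, 79.8, 95.1 and 125 TPM), and AARS, the alanine enzyme (94.6, 96.0, 88.3 and 112 TPM). MARS and IARS differed by less than their spread: MARS averaged 116 ± 8.20 TPM in control libraries (SD, n = 2) and IARS 108 ± 11.4 TPM. Among mitochondrial enzymes IARS2 (73.4, 50.7, 52.1 and 44.7 TPM) and TARS2, the mitochondrial threonine enzyme (53.8, 53.3, 48.6 and 42.7 TPM), led. At the low end stood PARS2, the mitochondrial proline enzyme, at 3.21 to 4.02 TPM, and TARSL2 at 2.35 to 3.37 TPM.

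**Figure D1:**
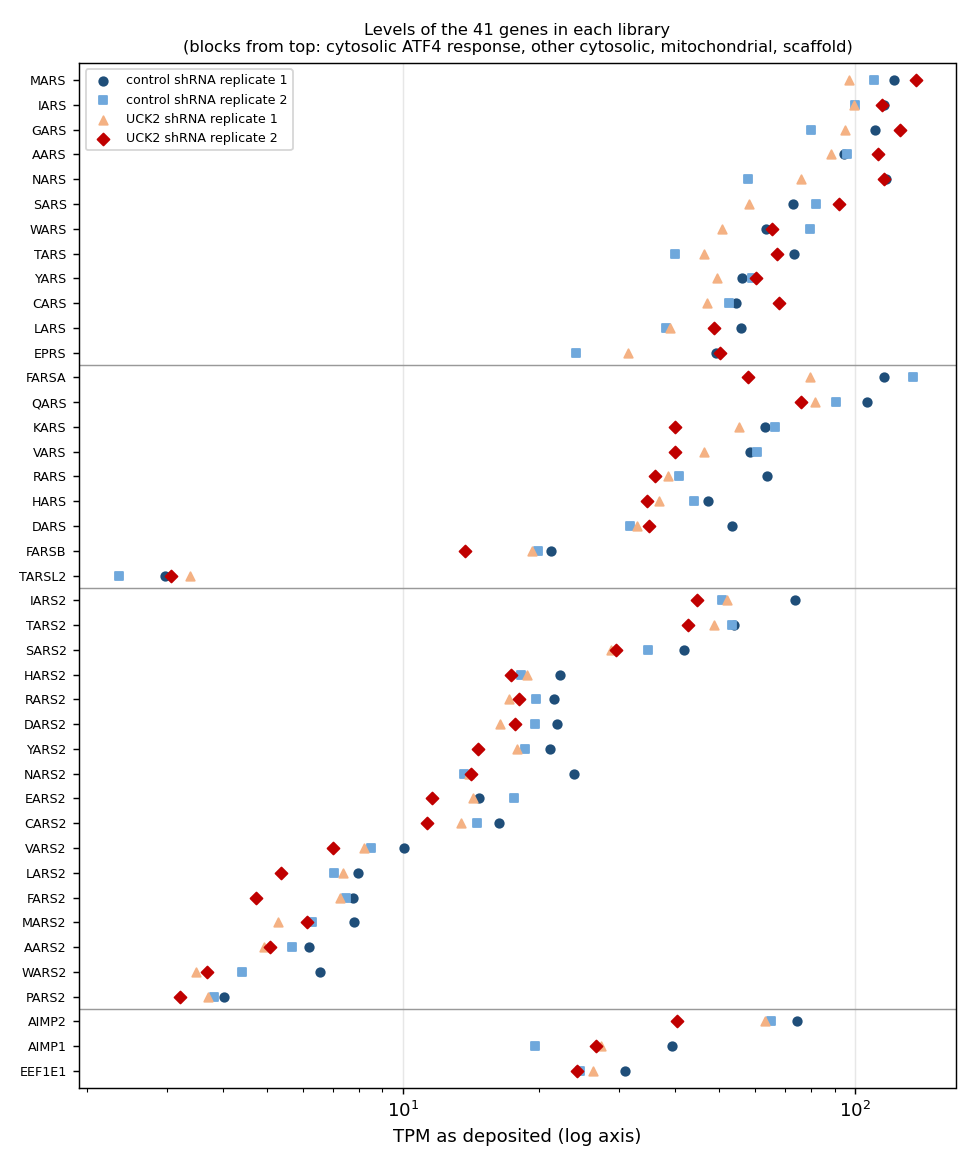
Deposited TPM of the 41 genes on a log axis, 1 point per library, with genes grouped as cytosolic enzymes of the ATF4 response, other cytosolic enzymes, mitochondrial enzymes and scaffolds. Cytosolic means reach 116 TPM while mitochondrial means stop at 55.2 TPM, and the 4 libraries of a gene lie close together next to the spread between genes.

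No synthetase gene was called between the groups. The limma test on log2(TPM + 1), adjusted over all genes, called 0 of the 41 higher and 0 lower, as it did for all genes tested (0.0% in each direction); the smallest adjusted p among the 41 was 0.294. After scaling, 9 of all genes were called higher (0.0641%) and 0 lower (0.0%), and 0 of the 41 in either direction. At an unadjusted p under 0.05 on the deposited scale, FARSA and VARS were lower, 2 of 41 against 14% of all genes, and 0 of 41 were higher against 1.38%. After scaling FARSA alone was lower (1 of 41 against 1.42%) and 0 were higher (3.97%). As deposited, 34 of the 41 log2 differences were below 0, against 74.7% of all genes; after scaling 23 were, against 50.8%. Libraries of the 2 groups did not overlap for 21 members on the lower side (44.4% of all genes) and for 1, TARSL2, on the higher side (5.46%). With scaling, 4 members lay wholly lower (FARSA, QARS, SARS2 and WARS2; 15.5% of all genes) and 4 wholly higher (IARS, GARS, AARS and TARSL2; 16%). All genes share the same libraries and each count departs from the background by few genes. These shares are therefore not read as setting the members apart, and no test of them was made.

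FARSA, the catalytic subunit of cytosolic phenylalanine enzyme, had the lowest difference. Its row (ENSG00000179115, hg38 chromosome 19, bases 12922479 to 12934037, minus strand) held 116, 134, 79.3 and 57.9 TPM. Both libraries labelled UCK2 shRNA lay below both controls, with means of 68.6 ± 15.2 and 125 ± 12.9 TPM (SD, n = 2). The log2 difference was -0.87 ± 0.20 (SE; limma adjusted p = 0.294), and -0.63 after scaling (adjusted p = 0.880). Without control replicate 1 the difference on the deposited scale was -0.97. Over the alternatives that kept all 4 libraries the limma adjusted p ran from 0.0101 to 0.953. Its low end came from a block on crossed replicate numbers, added after seeing the data. FARSB, which encodes the other subunit of the same tetrameric enzyme, held 21.3, 19.9, 19.3 and 13.7 TPM, with a log2 difference of -0.32 ± 0.23. The ratio of FARSA to FARSB was 5.43, 6.73, 4.12 and 4.23, so the control libraries had the higher ratios.

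VARS, the valine enzyme, held 58.5, 60.5, 46.2 and 39.9 TPM, with a log2 difference of -0.46 ± 0.17 (SE; limma adjusted p = 0.297). After scaling it was -0.23 and the groups overlapped. WARS2, the mitochondrial tryptophan enzyme, was low throughout at 6.55, 4.41, 3.49 and 3.68 TPM. Its difference was -0.48 ± 0.29 on the log2(TPM + 1) scale (adjusted p = 0.454), which understates changes of genes this low.

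The 3 positive differences of smallest p after scaling were those of GARS, TARSL2 and NARS. GARS differed by 0.21 ± 0.22 as deposited (limma adjusted p = 0.670) and by 0.45 after scaling (adjusted p = 0.920). TARSL2, a second cytosolic threonine enzyme, held 2.97, 2.35, 3.37 and 3.06 TPM and differed by 0.21 ± 0.29 (adjusted p = 0.765). NARS, the asparagine enzyme, held 117, 57.8, 75.8 and 116 TPM. Its controls differed from each other by more than the groups did, and the group difference was 0.19 ± 0.35 (adjusted p = 0.830).

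Among the most abundant genes the signs of MARS, IARS and TARS2 turned with the scale, and those of AARS and IARS2 did not. MARS differed by -0.01 ± 0.20 as deposited (limma adjusted p = 0.986) and by 0.23 after scaling. IARS gave -0.01 ± 0.17 (adjusted p = 0.982) and 0.23. AARS was at 0.06 ± 0.18 (adjusted p = 0.894) and 0.30. Among mitochondrial genes IARS2 differed by -0.33 ± 0.22 (adjusted p = 0.491) and TARS2 by -0.23 ± 0.17 (adjusted p = 0.539), which became -0.09 and 0.01 after scaling.

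**Figure D2:**
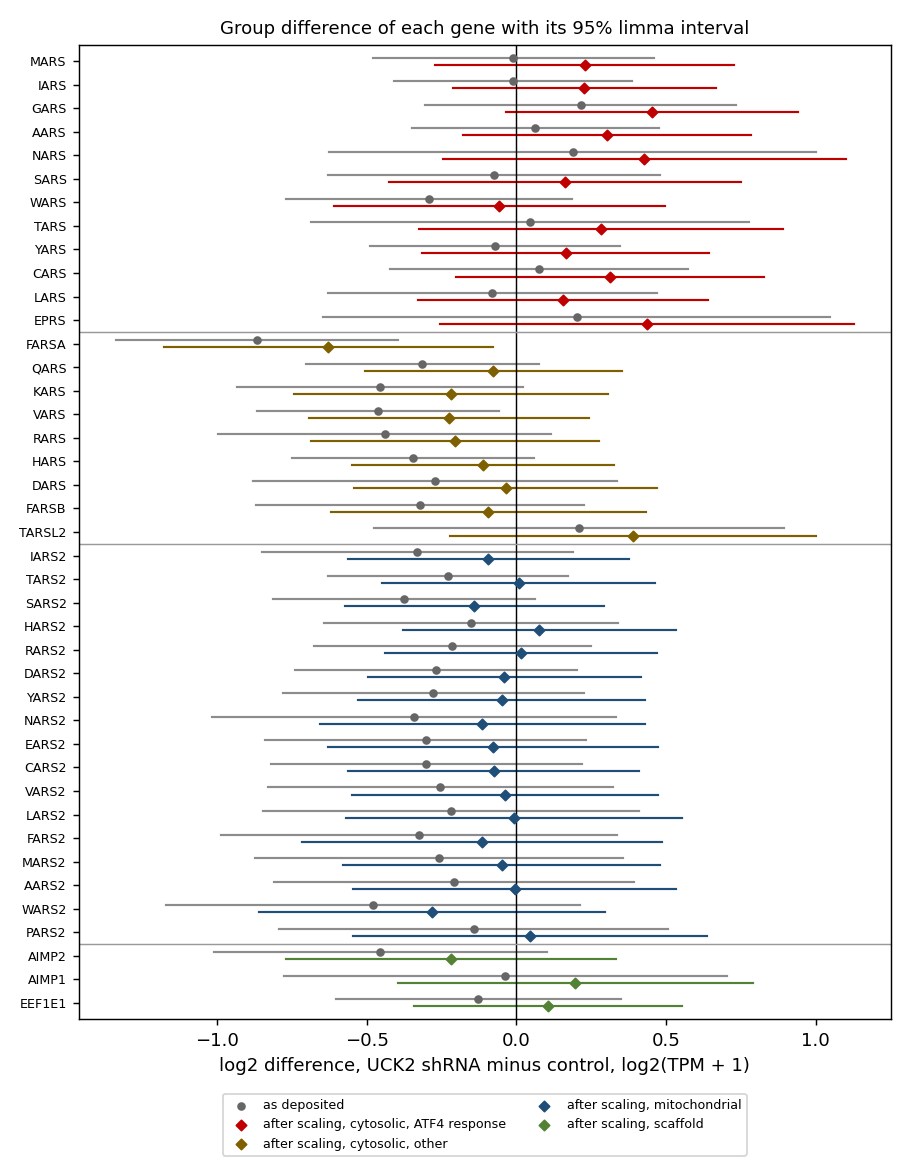
UCK2 shRNA minus control log2 difference of each gene on the log2(TPM + 1) scale with its 95% limma interval, as deposited (grey circles) and after median-ratio scaling (coloured diamonds). The FARSA interval lies below 0 on both scales and that of VARS on the deposited scale, and no adjusted p among the 41 is under 0.294.

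Cytosolic and mitochondrial enzymes were then compared as groups. The median log2 difference was -0.07 for the 21 cytosolic genes and -0.27 for the 17 mitochondrial genes as deposited, against -0.22 for all genes. After scaling the medians were 0.16 and -0.05, against -0.01. The gap between the deposited medians, 0.19, was -0.04 without UCK2 shRNA replicate 2 and 0.43 without UCK2 shRNA replicate 1. All 17 mitochondrial differences were below 0 as deposited, against 74.7% of all genes. After scaling 13 were, against 50.8%, and the 17 ran from -0.28 to 0.08. The cytosolic ones ran wider than these on both scales, from -0.87 to 0.21 as deposited and from -0.63 to 0.45 after scaling. Mitochondrial genes were lower in level, and log2(TPM + 1) understates changes of low genes. With 0.1 added to the TPM in place of 1 the gap between the deposited medians was 0.22, and with 5 added 0.14. No test is given for these medians, since with 2 libraries a group an exact permutation test cannot pass a threshold of 0.05.

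Within the cytosolic group, values differed between 12 synthetases known as ATF4 targets and the rest. The 12 were AARS, CARS, EPRS, GARS, IARS, LARS, MARS, NARS, SARS, TARS, WARS and YARS. After scaling 11 of the 12 lay above 0 (all but WARS, the tryptophan enzyme), with a median of 0.26, whereas 8 of the 9 other cytosolic enzymes lay below 0 (all but TARSL2), with a median of -0.11. On the deposited scale the medians were 0.02 and -0.35, and 6 of the 12 lay below 0. ATF4 itself was not analysed here, nor was any other protein-coding gene on chromosomes 21 and 22. None of the 12 was called, and the list had been chosen with results of these data known. The gap between the medians on the deposited scale, 0.36, was 0.11 without UCK2 shRNA replicate 2 and 0.73 without UCK2 shRNA replicate 1.

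UCK2 shRNA replicate 2 was the library in which these genes stood high. Relative to each gene's mean over the 4 scaled libraries, the median deviation of the 12 was -0.14, -0.08, -0.09 and 0.37 on the log2 scale. For the 9 other cytosolic enzymes it was -0.01, 0.12, 0.00 and -0.16, and for mitochondrial enzymes -0.02, 0.05, 0.09 and -0.10. All 12 were higher in replicate 2 than in replicate 1 of the UCK2 shRNA group, by 0.19 to 0.64, as were 1 of the 9 others (DARS, the aspartate enzyme), 6 of 17 mitochondrial enzymes and 0 of 3 scaffolds, against 50.3% of all genes. The highest scaled library was UCK2 shRNA replicate 2 for 11 of the 12 and for 0 of the 9 others, against 30% of all genes. As deposited it was the highest for 7 of the 12 and 0 of the 9, against 14.6% of all genes; IARS, NARS, TARS and LARS were then highest in control replicate 1 and WARS in control replicate 2. The GC correction described below started from the deposited values, and its counts were also 7 and 0. The difference between median deviations of the 12 and the 9 was -0.13, -0.20, -0.09 and 0.53 across the libraries. Control libraries and UCK2 shRNA replicate 1 were thus close to each other, and the high value was that of 1 library.

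**Figure D3:**
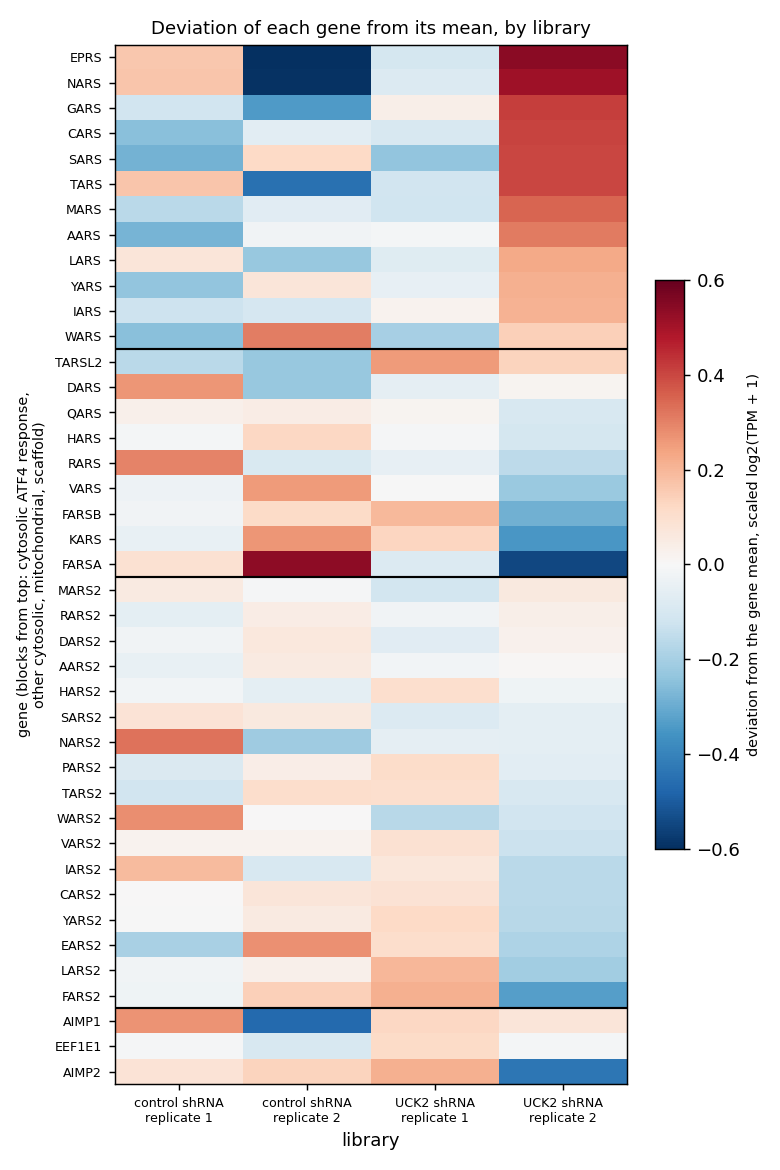
Heat map of each gene's deviation (rows, in blocks by gene group) from its own mean over the 4 scaled libraries (columns), on the log2(TPM + 1) scale, with red for above and blue for below the mean. The 12 ATF4-response synthetases have a median of 0.37 in UCK2 shRNA replicate 2 and between -0.14 and -0.08 in the other libraries.

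EPRS, the fused glutamate and proline enzyme, shows how far single libraries could stand apart, with 49.2, 24.1, 31.5 and 50.3 TPM. On the deposited scale, control replicate 1 and UCK2 shRNA replicate 2 were alike and both high. There the EPRS difference of 0.20 ± 0.36 was smaller than its standard error. After scaling EPRS stood at 41.5, 24.1, 34.3 and 54.2, and differed by 0.44 ± 0.30. SARS, the serine enzyme, held 72.9, 81.8, 58.3 and 92.0 TPM. CARS, the cysteine enzyme, held 54.4, 52.6, 47.0 and 67.7 TPM. As deposited, replicate 2 of the UCK2 shRNA group was the highest library of these 2 genes and replicate 1 the lowest. After scaling replicate 2 was still the highest, but control replicate 1 was the lowest, at 61.5 for SARS and 45.9 for CARS. QARS, the glutamine enzyme, and KARS, the lysine enzyme, gave the opposite order within that group. QARS held 106, 90.6, 81.4 and 76.0 TPM and KARS 63.2, 66.6, 55.4 and 40.0 TPM, so both were lowest in UCK2 shRNA replicate 2.

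The start regions of the members were searched for the core of the C/EBP-ATF response element, the composite site that ATF4 binds with a C/EBP partner. The letters searched were TGATGNAA on both strands, a motif chosen after the values above were known. The ATF4-response list and this motif both rest on earlier knowledge of ATF4, so matches in that list are not independent evidence. RefSeq windows of 300 bases, from 250 before to 50 after a start (GRCh38.p14), were at hand for 33 of the 41 members. The motif occurred in 7 of 10 ATF4-response synthetases with a window, in 0 of 6 other cytosolic enzymes, in 1 of 14 mitochondrial enzymes (YARS2, the tyrosine enzyme) and in 0 of 3 scaffolds, against 4.46% of all 27305 RefSeq genes with a window (3.62% of 35116 windows). The 30 bases around each match are shown, on the gene's strand and 5′ to 3′ with the matching letters in capitals, because these are the members that carry it.
MARS, chr12:57488053-57488082: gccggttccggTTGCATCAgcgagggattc
IARS, chr9:92293692-92293721: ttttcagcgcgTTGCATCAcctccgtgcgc
GARS, chr7:30594834-30594863: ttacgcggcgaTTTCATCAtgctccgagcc
AARS, chr16:70289675-70289704: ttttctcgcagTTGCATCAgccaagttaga
NARS, chr18:57621804-57621833: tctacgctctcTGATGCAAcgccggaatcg
TARS, chr5:33440956-33440985: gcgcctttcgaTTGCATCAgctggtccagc
CARS, chr11:3057407-3057436: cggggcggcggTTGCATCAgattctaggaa
YARS2, chr12:32756076-32756105: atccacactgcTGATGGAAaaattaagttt

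GARS and YARS2 differ from the other 6 in the letter at N. EPRS, SARS and WARS had a window without these letters, and YARS and LARS had no window. UCK2 shRNA replicate 2 stood above replicate 1 after scaling for the matching cytosolic genes, from 0.19 for IARS to 0.59 for NARS, and below it for YARS2 at -0.28. The ATF4-response genes whose window lacked the letters also stood higher in replicate 2, with EPRS and SARS both at 0.64 and WARS at 0.35, so the matching genes were not set apart from them. A CCAAT box, read in the same way, was found in 6 of the 10, 1 of the 6, 9 of the 14 and 3 of the 3, against 39.7% of RefSeq genes (34.6% of windows). TGACGT, the core of the cyclic AMP response element, was found in 1 of 10, 0 of 6, 3 of 14 and 1 of 3, against 9.64% of RefSeq genes (7.98% of windows). A match is a description of the letters and says nothing of binding in these cells.

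Ratios of a cytosolic gene to its mitochondrial counterpart do not depend on how a library is scaled. There were 18 such pairs, built from 17 mitochondrial genes. In 17 pairs the cytosolic mRNA was the more abundant in every library. The exception was TARS, the threonine enzyme, over TARS2, at 1.36, 0.749, 0.952 and 1.57. AARS over AARS2 ran from 15.3, 16.9 and 17.9 to 22.1. MARS over MARS2 was 15.6, 17.5, 18.3 and 22.2, and only the last of these was the highest single ratio of all pairs. Both UCK2 shRNA libraries thus lay above both controls for these pairs, as they did for NARS over NARS2 at 4.87, 4.25, 5.41 and 8.23.

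The median ratio of the 12 pairs with an ATF4-response synthetase was 4.11 and 3.93 in the controls and 4.40 and 7.12 in the UCK2 shRNA libraries. For the 6 other pairs it was 2.85, 2.54, 2.46 and 2.45. The mean log2 ratio was higher in the UCK2 shRNA group in 12 of the 12 and in 2 of the 6. Among the 12, UCK2 shRNA replicate 1 alone lay on either side of the control mean. It was below for LARS over LARS2 (log2 ratio 2.41 against 2.63) and above for NARS over NARS2 (2.44 against 2.19). Within the UCK2 shRNA group replicate 2 was above replicate 1 in 12 of the 12, by 0.28 to 0.97. It was so in 4 of the 6, where the difference ran from -0.17 to 0.16. The groups did not overlap in 3 of the 12, all higher (AARS, MARS and NARS), and in 3 of the 6, all lower (HARS, VARS and FARSA). For single genes after scaling that share was 16% on the higher and 15.5% on the lower side. This is not a background for ratios, for which no share over other gene pairs was computed. The counts of pairs, with those of the mean log2 ratio, are therefore given as a description only. EPRS entered the 12 pairs with both EARS2 and PARS2, and FARSA and FARSB shared FARS2, so pairs were not independent.

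**Figure D4:**
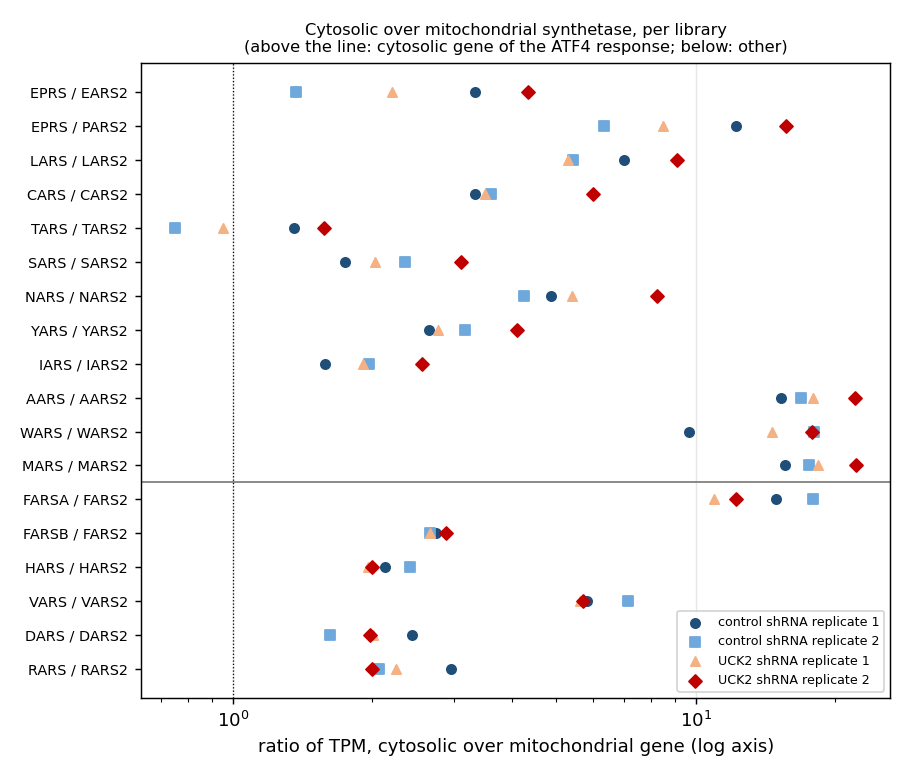
Ratio of cytosolic to mitochondrial TPM for each of 18 pairs on a log axis, 1 point per library, with pairs of ATF4-response synthetases set apart from the others. In all 12 ATF4-response pairs UCK2 shRNA replicate 2 lies to the right of replicate 1, with a median ratio of 7.12 against 4.40, and only TARS over TARS2 falls below 1.

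HARS and HARS2, the cytosolic and mitochondrial histidine enzymes, lie head to head on chromosome 5 and their rows overlap by 599 bases on opposite strands. HARS (bases 140673173 to 140692024, minus strand) held 47.3, 44.0, 36.7 and 34.6 TPM and differed by -0.35 ± 0.17 (SE; limma adjusted p = 0.373). HARS2 (bases 140691426 to 140699291, plus strand) held 22.2, 18.2, 18.8 and 17.3 TPM and differed by -0.15 ± 0.21 (adjusted p = 0.756). After scaling the values were -0.11 and 0.08. Their ratio was 2.13, 2.41, 1.96 and 2.0, so the UCK2 shRNA libraries were both below the controls.

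The 8 enzymes of the multi-synthetase complex had a median log2 difference of -0.18 as deposited and 0.06 after scaling, and 0 were called. Their mRNAs were not present in equal amounts: the most abundant exceeded the least abundant 2.47-fold and 4.56-fold in the controls and 3.16-fold and 3.89-fold in the UCK2 shRNA libraries. AIMP2, the scaffold that joins both arms of the complex, held 74.4, 65.2, 63.2 and 40.4 TPM. Its log2 difference was -0.45 ± 0.24 (SE; limma adjusted p = 0.389), and -0.22 after scaling, with UCK2 shRNA replicate 2 alone far below the rest. AIMP1, which also gives rise to a secreted cytokine, held 39.3, 19.6, 27.4 and 26.7 TPM, and EEF1E1, which links MARS to the complex, held 31.0, 24.6, 26.2 and 24.2 TPM. For AIMP1 and EEF1E1 the spread of the controls covered both UCK2 shRNA libraries or nearly so. AIMP2 over EEF1E1 was 2.40, 2.65, 2.41 and 1.67.

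Synthetases fall into 2 structural classes with unrelated catalytic folds. The median log2 difference was -0.27 for class I genes and -0.23 for class II genes as deposited, and -0.05 and -0.01 after scaling, so the classes lay close together and near all genes.

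For 18 of the 41 genes another row of at least 1 TPM overlapped the gene, in 17 of them on the opposite strand, and no source used here says that counting used strand. Without strand, reads of such a gene and its partner cannot be told apart. FARSA-AS1, a non-coding RNA that lies within FARSA on the opposite strand over 2775 bases, was listed at 0, 1.43, 6.98 and 5.02 TPM. Its log2 difference was 2.15 ± 0.46 (SE; limma adjusted p = 0.294), opposite in sign to that of FARSA, and 2.25 after scaling (adjusted p = 0.215). DDIT3, a stress response factor and itself in the ATF4 list, overlaps MARS by 982 bases on the opposite strand. DDIT3 held 115, 97.2, 86.7 and 139 TPM, the same library order as MARS on the deposited scale. AIMP2 shares 1591 bases with EIF2AK1, a kinase of the integrated stress response, at 118, 97.5, 85.1 and 68.5 TPM.

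Base composition moved with the differences between libraries. Over 7297 protein-coding genes averaging at least 10 TPM, the Spearman correlation of transcript GC content with the scaled log2 ratio was -0.62 between the control replicates, -0.32 between replicates 2 and 1 of the UCK2 shRNA group and -0.53 for the group difference. These are descriptions across genes, which share the 4 libraries. Over the 41 members the values were -0.59, -0.22 and -0.20. Control replicate 1 exceeded control replicate 2 after scaling in 16 of the 41, against 49.3% of all genes; NARS, EPRS and TARS were among them. ATF4-response synthetases spanned 41.5% to 55.7% GC (median 50%), other cytosolic enzymes 41.2% to 62.6% and mitochondrial enzymes 41.9% to 61.2%. A GC correction, chosen after seeing the data, was made on the deposited values without size factors. Replicate 2 of the UCK2 shRNA group was then above replicate 1 in 12 of the 12 ATF4-response synthetases. The same held for 0 of the 9 others and 4 of the 17 mitochondrial enzymes. As deposited, without the correction, these counts were 12, 1 and 7. The difference between the medians of the 12 and the 9 was then -0.14, -0.28, -0.11 and 0.52 across the libraries, close to the uncorrected values.

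**Figure D5:**
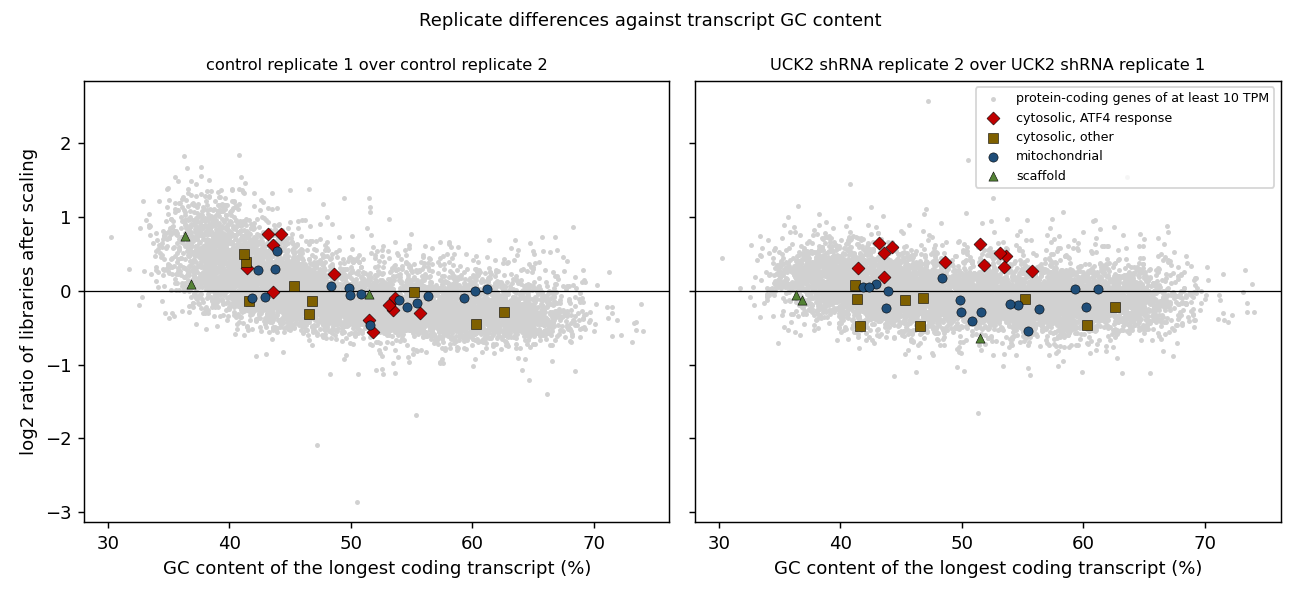
Log2 ratio of scaled libraries against GC content of the longest coding transcript for protein-coding genes averaging at least 10 TPM (grey) and for members (coloured by group), between control replicates (left) and between UCK2 shRNA replicates (right). The trend is steeper on the left (Spearman -0.62 against -0.32 on the right), and on the right all 12 ATF4-response synthetases lie above 0.

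Genes that work with the synthetases were read from a list of 17 partners: amidotransferase subunits, editing and tRNA-maturation factors, and elongation factors. All 17 were tested and 0 were called. Their median log2 difference was -0.32 as deposited and -0.10 after scaling, with 14 and 11 of the 17 below 0. EEF1A1, which delivers charged tRNA to the ribosome, held 2799, 2804, 2371 and 2202 TPM and differed by -0.29 as deposited (limma adjusted p = 0.386) and -0.05 after scaling. EEF1D, a subunit of its exchange factor, held 840, 1003, 668 and 642 TPM and differed by -0.49 (adjusted p = 0.294) and -0.24.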

How the data were processed

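RNA-seq of 4 MHCC-97H libraries was read from a deposited table of TPM per gene made by the authors. Tools named in the submitters' processing notes, without roles, are HTSeq, edgeR, DESeq and TopHat2 2.0.14, with hg38 as the build; strand use in counting is not given there. TPM keeps no depth, so none is given. Groups follow the titles and genotypes; 2 descriptions disagree with them (another line number for control replicate 2, UCK3 for UCK2 shRNA replicate 2). P-values measure only the spread between libraries, which may be technical.

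Genes averaging at least 1 TPM were tested in R 4.3.3 with limma 3.58.1, on log2(TPM + 1) values, without a block. The test used a trend, was two-sided, and was adjusted by Benjamini-Hochberg over 14038 genes, with a threshold of 0.05. The fit was checked on simulated data for the mean size of added differences only. Scaled values were divided by median-ratio size factors. GC content came from GENCODE release 29. GC correction subtracted a loess fit (span 0.5) from the deposited log2(TPM + 1) values of each library and added back their mean. Start windows came from RefSeq. Members and lists were chosen with earlier results of these data known. Full values are given for the 3 members of smallest unadjusted p in each direction after scaling, the most abundant members of each kind, HARS and HARS2; other lists give their 2 most abundant genes. Members further described by values were chosen after those were seen.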

Additional observations from a re-analysis of the deposited data

How the results depend on the processing

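Counts of calls, the cytosolic and mitochondrial medians with their gap, and the genes given with full values were recomputed with median-ratio scaling, quantile normalization, a total taken without the 50 most abundant genes (rescaling below), pseudocounts of 0.1 and 5, no filter or a mean of at least 5 TPM, no trend, the replicate number as a block, each library left out, KARS and GARS left out and TARSL2 read as mitochondrial. A GC correction, a crossed pairing and the gap between the 12 ATF4-response and the 9 other cytosolic enzymes were added after seeing the data. Without a library the lone sample was assumed to vary like the other group.

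Genes called higher numbered 0 as reported, 9 with scaling, 8 with quantile normalization, 29 with the replicate block and 0 to 242 with a library left out; genes called lower numbered 0, 10 with the block and 0 to 108. The highest leave-one-out counts came without control replicate 1; without control replicate 2 they were 32 and 21. Members called lower numbered 0, and 0 to 1 with a library left out (FARSA, without control replicate 1). With the block FARSA had a limma adjusted p of 0.116 and no member was called. Same-numbered libraries deviated in opposite directions (correlation -0.21). With 2 libraries a group the crossed numbers then give 0.21 by construction, so the sign cannot show how libraries were paired. A block on the crossed numbers called 91 genes higher and 636 lower, with 1 member among the latter. That block was added after seeing the data, so its counts are a description only.

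The cytosolic median was -0.07, then 0.16 with scaling, 0.24 with quantile normalization, 0.27 with rescaling and -0.31 to 0.078 with a library left out. The mitochondrial median was -0.27, then -0.049, -0.11 and 0.052 in the same order, and -0.35 (without UCK2 shRNA replicate 1) to -0.16 (without control replicate 1) with a library left out. Their gap of 0.19 ran from -0.041 (without UCK2 shRNA replicate 2) to 0.43 (without UCK2 shRNA replicate 1) with a library left out. The ATF4-response gap ran from 0.11 to 0.73. Signs turned for MARS (0.23, 0.40, 0.33 in that order, 0.069 with GC correction), IARS (0.23, 0.38, 0.33), TARS2 (0.0073, 0.10, 0.11), HARS2 (0.076, 0.074, 0.18) and IARS2 (0.010 with rescaling). With a library left out MARS ran from -0.25 to 0.23, IARS from -0.12 to 0.10, GARS from -0.018 to 0.45, NARS from -0.31 to 0.69 and AARS from -0.11 to 0.23. The cause of these changes was not tested. TPM keeps no depth, so counting error is unknown.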

Other observations

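Other genes of the amino acid response were read from a list of 18, of which 16 were tested; ATF4 was not analysed here and MTHFD2 averaged under 1 TPM. The list was chosen with results of these data known. As deposited 9 of the 16 log2 differences lay above 0, against 3549 of the 14038 tested genes. The median of the 16 was 0.12, against -0.22 for all genes. After scaling 15 of the 16 lay above 0, against 6912 of all genes, with a median of 0.35 against -0.01. The limma test called 0 on either scale. UCK2 shRNA replicate 2 was the highest library for 10 of the 16 as deposited (14.6% of all genes) and 13 after scaling (30%). It exceeded replicate 1 in 15 of the 16 on both scales, against 50.3% of all genes after scaling. The exception was the amino acid transporter SLC7A5. SLC3A2, the heavy chain of that transporter, held 312, 333, 261 and 300 TPM in control replicates 1 and 2 and UCK2 shRNA replicates 1 and 2. TRIB3, a pseudokinase induced by ATF4, held 118, 134, 100 and 128 TPM. Both lay lower in the UCK2 shRNA group as deposited, at -0.20 and -0.16, and slightly above 0 after scaling, at 0.04 and 0.08. ASNS, which makes asparagine, was chosen after its values were seen: it held 50.1, 37.1, 44.0 and 96.6 TPM. UCK2 shRNA replicate 1 lay between the controls as deposited, and above them after scaling. The ASNS difference was 0.59 as deposited (limma adjusted p = 0.449) and 0.82 after scaling (adjusted p = 0.884). XPOT, the tRNA exporter, was also chosen after its values were seen and held 95.8, 54.2, 66.9 and 110 TPM, the same library order as EPRS.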
